A study of Mus musculus with 14 samples.

Results

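Transcripts of 10 genes that package, move, take up or export lipoprotein lipids and cholesterol were followed in the retinal pigment epithelium (RPE) of mice lacking Clic4 in that tissue. The genes were chosen by name from their known roles, but with earlier results of these data known. The study that made these data had already listed Apoe, Lpl and Pltp among genes altered in knockout against wild-type mice. The genes are 10 of the 42687 in the count table. They comprise the apolipoprotein genes Apoe and Apob and the lipid loading gene Mttp, the transfer protein gene Pltp, the receptor genes Scarb1, Cd36 and Lrp1, the lipase gene Lpl, and the efflux pump genes Abca1 and Abcg1.

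The study sequenced poly(A) RNA of RPE cells from 14 mice, each library made from both eyes of a mouse. All mice were male, on the C57BL/6J strain and 3 months old. The knockout (KO) mice were Best1-Cre+/-; Clic4f/f, carrying a Cre driven by the Best1 promoter, which is active in RPE cells from after birth, and 2 copies of the floxed Clic4 allele. The sample names fall into 3 sets that share no library. The WT set held 3 wild-type and 3 KO libraries. The Ctrl set held 2 libraries of Clic4f/f mice without Cre and 2 KO libraries. The CreCtrl set held 2 libraries of Best1-Cre+/- mice with unfloxed Clic4 and 2 KO libraries. No control genotype occurs in more than 1 set, so the control genotype and the set cannot be told apart. Only Ctrl carries the floxed alleles without Cre and only CreCtrl carries Cre without the floxed alleles, whereas WT carries neither.

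RPE cells take up lipid from the blood side and from the shed outer segments of photoreceptors, and they return part of it to the circulation across Bruch's membrane. Lipoprotein particles are built in the endoplasmic reticulum, where MTTP loads lipid onto apolipoprotein B, and cholesterol is handed to apolipoprotein E and apolipoprotein A-I by the ABC transporters. Scavenger receptors and endocytic receptors bring lipoproteins back in, and lipoprotein lipase releases fatty acids from their triglycerides. In the eye these steps are studied because lipoprotein-like material collects beneath the RPE with age.

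Libraries held from 9828293 to 32384166 counts. Values are in CPM, a gene's count relative to the size of its library after scaling by TMM (trimmed mean of M values) factors, taken within a set unless said otherwise. Clic4, the targeted gene, was at 240 to 249 CPM in WT, 59.4 to 69.2 CPM in Ctrl, 86.5 to 109 CPM in CreCtrl and 9.40 to 32.7 CPM in the 7 KO libraries, so every KO library was below every control. Its log2 fold change was -3.32 in KO vs. WT (edgeR adjusted p = 3.3e-05). In KO vs. Ctrl it was -1.61, and even this targeted gene was not called there (edgeR adjusted p = 0.33). The summed level of 10 RPE markers, scaled over the 14 libraries, ran from 15154 to 22512 CPM in WT, from 45773 to 56596 CPM in Ctrl and CreCtrl, and from 70121 to 80301 CPM in KO. All 10 RPE markers reached at least 1 CPM in every library, Ttr and Rgr being the most abundant at up to 42407 and 20084 CPM. Of the 10, 9 were called higher in KO vs. WT and none in KO vs. Ctrl, where Pmel and Tyrp1 had log2 fold changes of -1.66 and -0.94 (edgeR adjusted p = 0.33 and 0.65). In KO vs. CreCtrl Lrat was called higher and Pmel lower (log2 fold changes 1.26 and -1.17, edgeR adjusted p = 0.036 and 0.0091). The summed level of 10 fibroblast markers ran the other way, from 1086 to 7347 CPM in controls against 84.2 to 613 CPM in KO, and that of 10 endothelial markers from 145 to 593 CPM against 44.1 to 177 CPM. The summed level of 10 myeloid markers was 938 to 3023 CPM in controls and 774 to 1005 CPM in 6 KO libraries, ranges that overlap, and 2655 CPM in KO replicate 2 of the Ctrl set. Of these markers Csf1r stood higher in KO, at 696 to 836 CPM against 450 to 615 CPM. Without Csf1r, which was set aside after its values were seen, the other 9 summed to 323 to 2533 CPM in controls, 31.5 to 233 CPM in the 6 KO libraries and 1960 CPM in KO replicate 2 of the Ctrl set. Each library is bulk tissue. A different share of a cell type and a different level of RNA per cell cannot be told apart in any value below.

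Of the 10 genes, 9 passed the filter on low counts in every comparison, and Apob had no count in any library. A gene was called when the adjusted p of edgeR's quasi-likelihood test, adjusted over all genes tested, was under 0.05. In KO vs. WT, 7 of the 9 were called, 4 higher (Apoe, Pltp, Mttp and Scarb1) and 3 lower (Cd36, Lpl and Abcg1), where 35.1% of all genes tested were called, 16.1% higher and 19.0% lower. In KO vs. CreCtrl, 3 of the 9 were called, Mttp higher and Cd36 and Abcg1 lower, where 15.8% of all genes were called, 3.60% higher and 12.2% lower. In KO vs. Ctrl none of the 9 was called, 0 were under an unadjusted p of 0.05, where 12.1% of all genes were, and 0% of all genes were called by edgeR. DESeq2 called none of the 9 there either, although it called 1111 of 15287 genes. When KO was set against control over the 14 libraries with the set as a covariate, the same 7 genes were called in the same directions as in KO vs. WT, where 40.6% of all genes were called, 21.0% higher and 19.6% lower. That fit includes the WT set, so the agreement of these calls is not independent. The 9 genes had a median log2 fold change of -0.24 against WT, beside -0.08 for all genes tested. The corresponding medians were 0.28 beside 0.01 against Ctrl, 0.22 beside -0.02 against CreCtrl and 0.05 beside 0.006 over the 14 libraries. For the 10 RPE markers the medians were 1.43 against WT, 0.54 against Ctrl, 0.50 against CreCtrl and 1.01 over the 14 libraries. The part of the RPE markers in the higher Apoe, Pltp, Mttp and Scarb1 was not tested.

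The values were also compared library by library. In the WT set 4 of the 9 genes had every KO library above every control and 4 had every KO library below, where 23.7% and 28.4% of all genes were so placed. In the Ctrl set 5 genes lay above and 1 (Lpl) below, beside 18.2% and 22.8% of all genes, and in the CreCtrl set 5 lay above and 3 below, beside 34.8% and 36.9%. With the 14 libraries on 1 scale, 3 genes had all KO libraries above all controls (3.95% of all genes) and 0 had all below (5.32%).

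**Figure D1:**
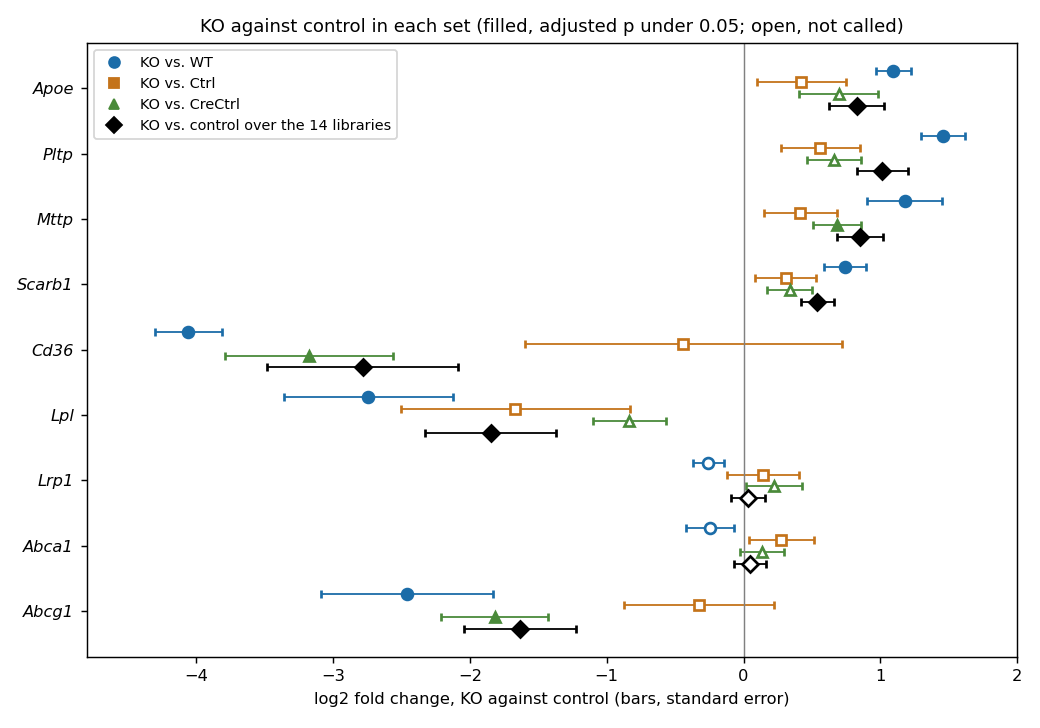
Log2 fold change of KO against control (x axis) for the 9 genes that could be tested, with bars for the standard error, in each set and over the 14 libraries. Filled symbols passed an adjusted p of 0.05 and open symbols did not: Apoe, Pltp, Mttp and Scarb1 lie to the right of 0 and Cd36, Lpl and Abcg1 to the left in all 4 comparisons, while Lrp1 and Abca1 stay within 0.28 of 0.

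Per kilobase of annotated exon, and scaled over the 14 libraries, the levels in the 7 control libraries spanned more than 3 orders of magnitude. Apoe was highest, with a lowest, median and highest value of 2235, 3032 and 3686 CPM per kb. Pltp followed with 322, 592 and 776 CPM per kb and Lrp1 with 99.7, 112.3 and 122 CPM per kb. The ranges of these 3 genes overlapped neither each other nor that of the next gene. Below them came Scarb1 (median 20.0 CPM per kb), Abca1 (12.9), Cd36 (12.5), Lpl (3.56), Mttp (3.23) and Abcg1 (1.00), and each of these 6 overlapped its neighbour in the order. In the 7 KO libraries the first 5 places of the order were held by the same genes, with medians of 4976, 1020, 111.95, 28.3 and 13.6 CPM per kb and no overlap between neighbours. Mttp then stood ahead of Cd36, Lpl and Abcg1, at medians of 5.07, 0.920, 0.651 and 0.247 CPM per kb, with overlap between each pair of neighbours.

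**Figure D2:**
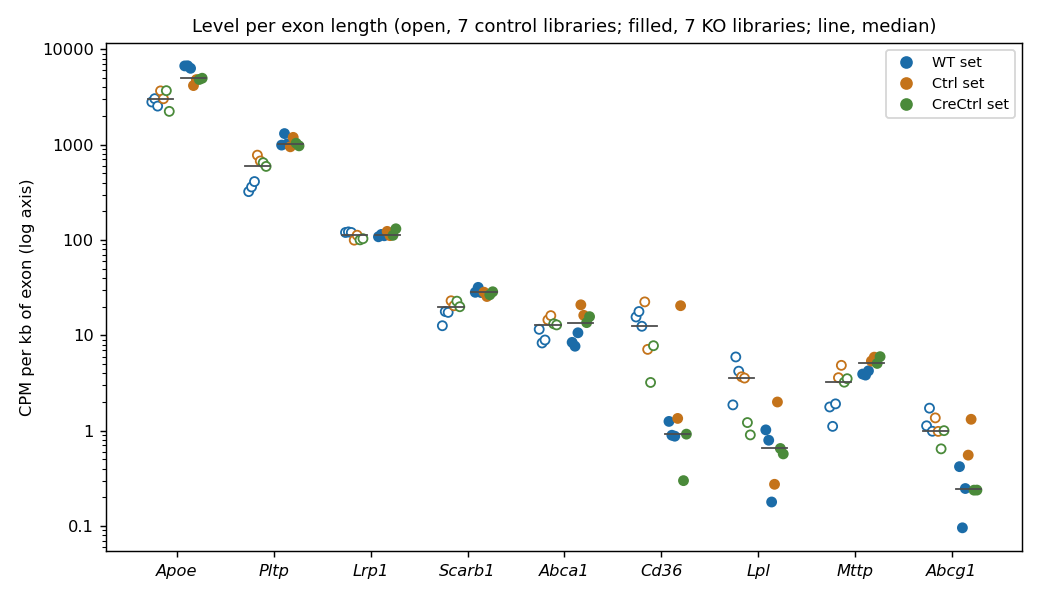
Level of each gene in CPM per kb of exon on a log axis, with 7 control libraries (open) and 7 KO libraries (filled) coloured by set and lines at the medians. Apoe, Pltp and Scarb1 are the genes whose KO points all lie above their control points; 6 of the 7 KO points of Cd36 and Abcg1 lie below all their controls and 1, of the Ctrl set, lies among them, while 2 KO points of Lpl, of the Ctrl and WT sets, lie among the controls.

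Apoe encodes apolipoprotein E, the ligand through which lipoprotein remnants bind their receptors (mouse chromosome 7, 19696109 to 19699188, minus strand, GRCm38). It stood at 6442, 7018 and 5975 CPM in the WT libraries and at 14102, 13912 and 13524 CPM in the KO libraries of the same set. Every KO library was therefore above every WT library, and the log2 fold change was 1.10 ± 0.13 (SE, n = 3 and 3; edgeR adjusted p = 3.4e-04), or 2.14-fold. In the Ctrl set the values were 7589 and 6206 CPM in Ctrl and 8561 and 9911 CPM in KO. In the CreCtrl set they were 7873 and 4817 CPM in CreCtrl and 9943 and 10604 CPM in KO. KO lay above the controls without overlap in both sets, yet the log2 fold changes of 0.42 ± 0.33 and 0.70 ± 0.29 did not pass the test (edgeR adjusted p = 0.78 and 0.12). Over the 14 libraries Apoe rose by a log2 fold change of 0.83 ± 0.20 (edgeR adjusted p = 0.0055, n = 7 and 7).

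Apob encodes the large structural protein that holds VLDL, LDL and chylomicrons together (chromosome 12, 7977648 to 8016835, plus strand). No read was assigned to it in any of the 14 libraries. With a limit of 3 counts for an observed 0, its level could have been as high as 0.0926 CPM in the deepest library and 0.305 CPM in the shallowest (on library totals, before TMM scaling), so Apob transcripts were not detectable at this depth. These limits cover counting error only.

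Mttp encodes the large subunit of microsomal triglyceride transfer protein, which lipidates apolipoprotein B (chromosome 3, 138089854 to 138144968, minus strand). It was at 11.8, 7.45 and 13.1 CPM in WT and at 24.0, 23.0 and 26.4 CPM in the matching KO libraries. The groups did not overlap, and Mttp rose by a log2 fold change of 1.18 ± 0.27 (edgeR adjusted p = 0.010). It was at 20.0 and 22.0 CPM in CreCtrl and at 30.3 and 37.0 CPM in KO, a log2 fold change of 0.68 ± 0.18 that also passed (edgeR adjusted p = 0.045). In the Ctrl set it was at 21.6 and 28.8 CPM in Ctrl and 32.0 and 35.3 CPM in KO, again without overlap, but the log2 fold change of 0.42 ± 0.27 was not called (edgeR adjusted p = 0.71). Over the 14 libraries the log2 fold change was 0.85 ± 0.17 (edgeR adjusted p = 0.0017). Thus Mttp, whose product loads apolipoprotein B, was measured in every library while Apob itself was at 0. Of the annotated exon bases of Mttp, 7.36% are shared with Trmt10a and 2.13% with the antisense gene Gm43691, both on the opposite strand, and the strand setting of the counting is not given in the sources used here, so its level is uncertain to that extent. The call in KO vs. CreCtrl was lost without CreCtrl replicate 1 (edgeR adjusted p = 0.052), without CreCtrl replicate 2 (0.0781) and without KO replicate 2 (0.30).

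Pltp encodes phospholipid transfer protein, which moves phospholipid between lipoproteins and remodels HDL (chromosome 2, 164839518 to 164857711, minus strand). Its values were 886, 997 and 1157 CPM in WT and 2496, 3242 and 2615 CPM in KO. The lowest KO library was above the highest WT library, and Pltp rose by a log2 fold change of 1.46 ± 0.16 (edgeR adjusted p = 2.5e-04), or 2.75-fold, the largest rise among the 9 genes tested in that set. The Ctrl libraries held 1926 and 1654 CPM and the KO libraries of that set 2338 and 2944 CPM. The CreCtrl libraries held 1655 and 1528 CPM and the KO libraries of that set 2555 and 2482 CPM. KO libraries thus lay close to each other in the 3 sets, from 2338 to 3242 CPM on the set scales, while WT lay below Ctrl and CreCtrl. The log2 fold changes of 0.56 ± 0.29 and 0.66 ± 0.20 were not called (edgeR adjusted p = 0.59 and 0.059). The KO effect was larger in the WT set than in the Ctrl set by 1.04 ± 0.27 on the log2 scale (edgeR adjusted p = 0.045), where 5.15% of all genes differed, and by 0.91 ± 0.27 than in the CreCtrl set (edgeR adjusted p = 0.12). The first of these calls was lost in most of the alternatives given in the closing section. The RPE marker sum was lowest in WT as well, and its part in the result was not tested. Of the exon bases of Pltp, 19.3% are shared with Ctsa on the opposite strand, which leaves its level uncertain in the same way as for Mttp.

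**Figure D3:**
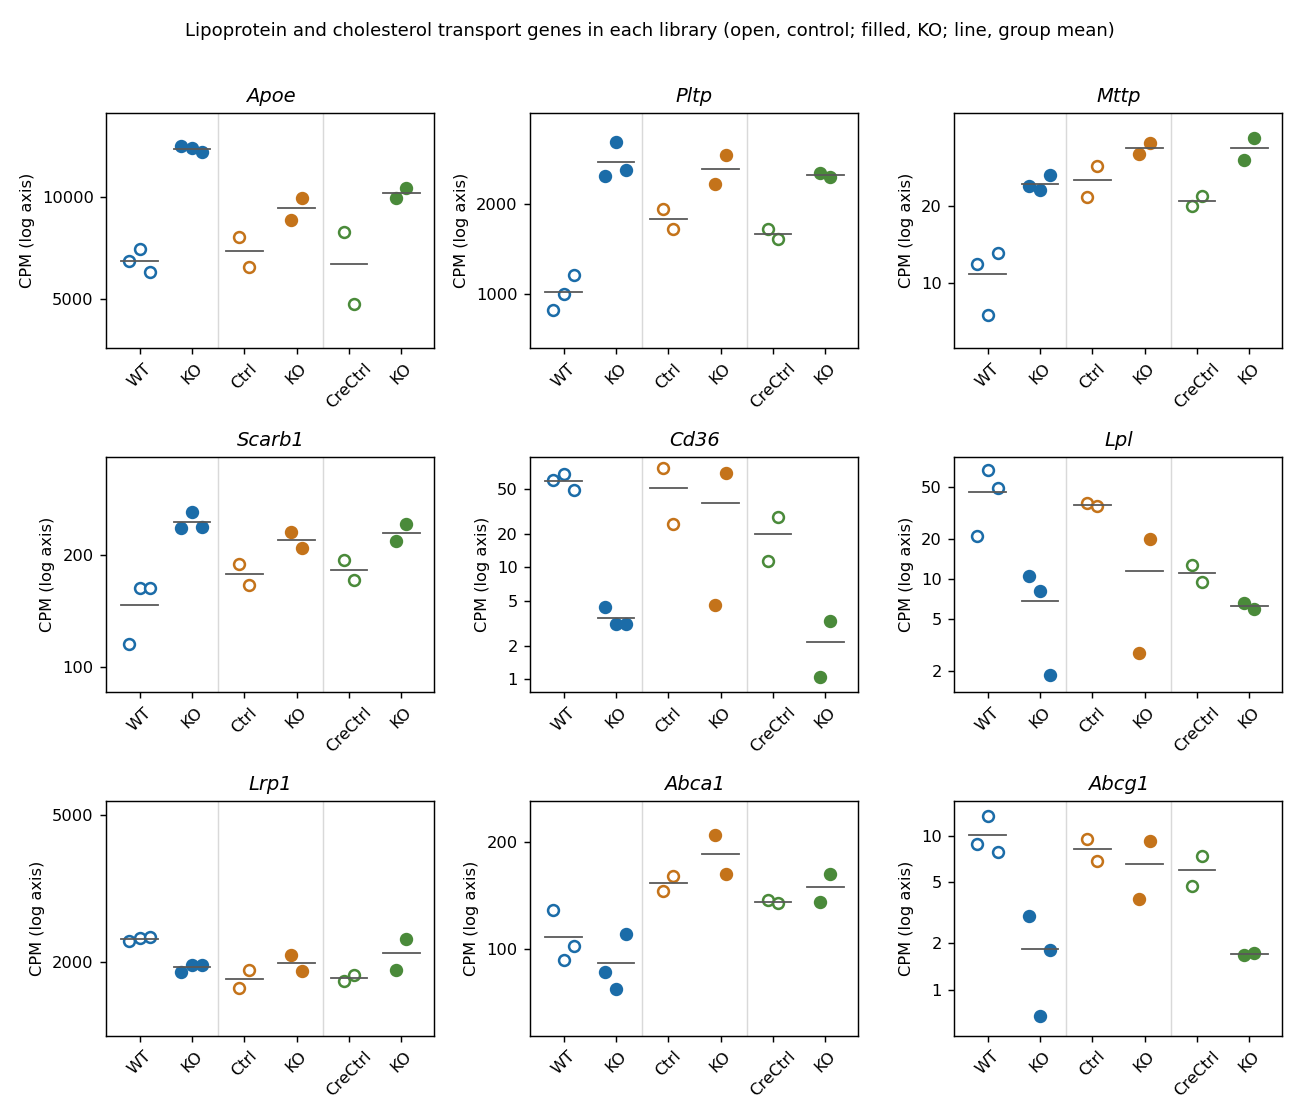
CPM of the 9 detected genes in each of the 14 libraries on log axes, scaled within each set, with open circles for controls, filled circles for KO and lines at the group means. Apoe, Pltp, Mttp and Scarb1 show every KO library above the controls of its set; Cd36 shows KO at 1.03 to 4.64 CPM in 6 libraries and at 70.8 CPM in KO replicate 2 of the Ctrl set.

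Scarb1 encodes scavenger receptor class B member 1, the HDL receptor through which RPE cells also take up carotenoids (chromosome 5, 125277087 to 125341094, minus strand). It stood at 115.3, 163 and 163 CPM in WT and at 237, 262 and 239 CPM in KO. The groups were apart and Scarb1 rose by a log2 fold change of 0.74 ± 0.16 (edgeR adjusted p = 0.0065), or 1.67-fold. It was at 190 and 166 CPM in Ctrl against 231 and 209 CPM in KO, and at 194 and 171 CPM in CreCtrl against 218 and 243 CPM in KO. These differences had the same sign and no overlap, but the log2 fold changes of 0.31 ± 0.22 and 0.34 ± 0.17 were not called (edgeR adjusted p = 0.76 and 0.18). Over the 14 libraries the log2 fold change was 0.54 ± 0.12 (edgeR adjusted p = 0.0031). Scaled over the 14 libraries, Apoe, Pltp and Scarb1 were the 3 of the 9 genes with every KO library above every control library of any set, where 3.95% of all genes were so placed.

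Cd36 encodes a fatty acid translocase that also binds oxidized LDL and, in RPE cells, takes part in the uptake of outer segments (chromosome 5, 17781690 to 17888801, minus strand). It was at 60.1, 69.0 and 49.2 CPM in WT and at 4.42, 3.11 and 3.14 CPM in KO. Cd36 fell by 4.06 ± 0.24 on the log2 scale, 16.7-fold (edgeR adjusted p = 2.6e-05), the largest change among the 9 genes tested. In the CreCtrl set it was at 11.5 and 28.2 CPM in CreCtrl and at 1.03 and 3.29 CPM in KO, a log2 fold change of -3.18 ± 0.61 (edgeR adjusted p = 0.020). In the Ctrl set it was at 78.0 and 24.5 CPM in Ctrl, at 4.64 CPM in KO replicate 1 and at 70.8 CPM in KO replicate 2. KO replicate 2 was within the control range, and the log2 fold change of -0.44 ± 1.16 was not called (edgeR adjusted p = 0.96). Without that library it was -3.46 (edgeR adjusted p = 0.15), the remaining KO library being assumed to vary as the controls did, and without KO replicate 1 it was 0.46. Over the 14 libraries Cd36 had a log2 fold change of -2.78 ± 0.70 (edgeR adjusted p = 0.0065) with the library and -3.61 without it (edgeR adjusted p = 1.28e-05).

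The myeloid markers are set beside Cd36 here, and their association with it was not tested. The macrophage marker C1qa, scaled over the 14 libraries, was at 22.8 to 240 CPM in the controls, at 5.33 to 27.2 CPM in 6 KO libraries and at 146 CPM in KO replicate 2 of the Ctrl set. Of the 10 myeloid markers, 9 were called lower and Csf1r higher in KO vs. WT, 0 were called in KO vs. Ctrl, and 8 were called lower in KO vs. CreCtrl. All 10 fibroblast markers were called lower in KO vs. WT and in KO vs. CreCtrl, as were 9 and 7 of 10 endothelial, 4 and 4 of 7 pericyte and smooth muscle, 5 and 2 of 5 erythrocyte, and 0 and 8 of 8 rod markers. Of all genes tested, 19.0% and 12.2% were called lower in these comparisons. Of the pericyte and smooth muscle list, Acta2 and Cspg4 had positive log2 fold changes in both and were not called. These were 0.64 and 0.13 against WT and 0.79 and 0.14 against CreCtrl. Over the 14 libraries Cspg4 was called higher (0.27, edgeR adjusted p = 0.024). Pericyte and smooth muscle markers summed to 471 to 2158 CPM in controls and 283 to 448 CPM in KO, without overlap. Erythrocyte markers summed to 109 to 751 CPM and 27.6 to 215 CPM. No myeloid marker was at 0 in all libraries. The part of these markers in the lower Cd36, Lpl and Abcg1 was not tested.

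**Figure D4:**
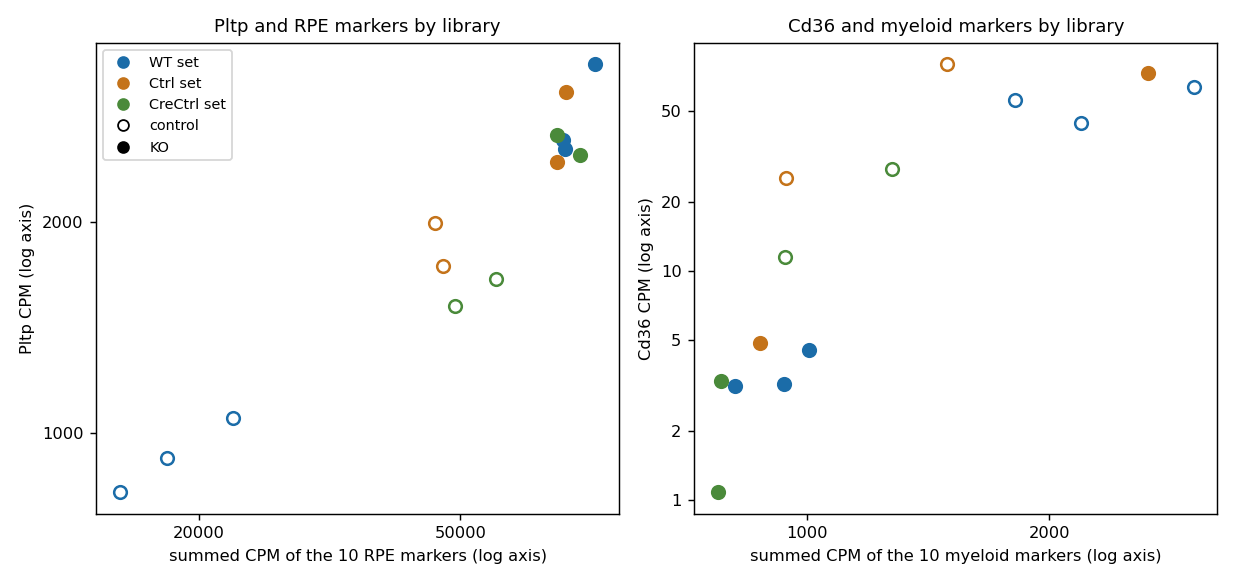
Each circle is a library, scaled over the 14 libraries, on log axes. Left, Pltp CPM against the summed CPM of the 10 RPE markers, where WT libraries are lowest on both axes and KO libraries highest; right, Cd36 CPM against the summed CPM of the 10 myeloid markers, where KO replicate 2 of the Ctrl set (2655 CPM of markers, 73.5 CPM of Cd36) lies among the controls.

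Lpl encodes lipoprotein lipase, the enzyme that hydrolyses triglyceride in chylomicrons and VLDL (chromosome 8, 68880491 to 68907448, plus strand). It was at 21.0, 67.2 and 48.5 CPM in WT and at 10.5, 8.05 and 1.87 CPM in KO. The spread within each group was wide, but the groups did not overlap and Lpl fell by 2.74 ± 0.62 on the log2 scale (edgeR adjusted p = 0.0090). In the Ctrl set the values were 37.3 and 35.7 CPM in Ctrl and 2.76 and 20.2 CPM in KO. In the CreCtrl set they were 12.7 and 9.54 CPM in CreCtrl and 6.57 and 5.96 CPM in KO. KO was below the controls in both sets, yet the log2 fold changes of -1.67 ± 0.84 and -0.83 ± 0.27 were not called (edgeR adjusted p = 0.57 and 0.069). The log2 fold change in the Ctrl set was -3.72 without KO replicate 2 (edgeR adjusted p = 0.087) and -0.86 without KO replicate 1 (edgeR adjusted p = 0.50). Lpl is strongly made by adipocytes. The summed level of 6 adipocyte markers was 2.68 to 22.6 CPM in controls, 0.201 to 4.15 CPM in 6 KO libraries and 12.7 CPM in KO replicate 2 of the Ctrl set. Fabp4, the most abundant of them at up to 18.5 CPM, was called lower in KO vs. WT and in KO vs. CreCtrl (log2 fold changes -3.86 and -3.52, edgeR adjusted p = 0.0094 and 0.012). In KO vs. Ctrl it was at 0.67 and not called (edgeR adjusted p = 0.92). Retn was not called in any set (-0.13, 1.27 and -1.87 against WT, Ctrl and CreCtrl, edgeR adjusted p = 0.95, 0.70 and 0.077). Plin1 could be tested only against CreCtrl and was not called (-0.65, edgeR adjusted p = 0.73). Lep was at 0 in every library and Adipoq in 12. The part of these markers in the Lpl values was not tested.

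Lrp1 encodes a large endocytic receptor that binds apolipoprotein E among many ligands (chromosome 10, 127538161 to 127621148, minus strand). It varied least of the 9 genes. The WT libraries held 2284, 2331 and 2340 CPM and the KO libraries 1886, 1962 and 1964 CPM. KO was lower without overlap, but the log2 fold change of -0.26 ± 0.11 was not called (edgeR adjusted p = 0.11). In the other sets its sign was opposite, with 1709 and 1904 CPM in Ctrl, 2097 and 1896 CPM in the matching KO, 1776 and 1845 CPM in CreCtrl and 1910 and 2316 CPM in the matching KO. Those log2 fold changes were 0.14 ± 0.26 and 0.22 ± 0.21 (edgeR adjusted p = 0.94 and 0.46). The call in KO vs. WT depends on the tool and scaling: Lrp1 was called lower by DESeq2 (adjusted p = 0.0062) and by edgeR with library sizes alone (log2 fold change -0.50, adjusted p = 0.0071).

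The efflux pumps behaved differently from each other. Abca1, which hands phospholipid and cholesterol to lipid-poor apolipoproteins (chromosome 4, 53030787 to 53159895, minus strand), was at 129, 93.2 and 102 CPM in WT and at 86.1, 77.1 and 110 CPM in KO. These ranges overlapped, with a log2 fold change of -0.24 ± 0.18 (edgeR adjusted p = 0.33). It was at 146 and 160 CPM in Ctrl against 208 and 162 CPM in KO, and at 137 and 134 CPM in CreCtrl against 136 and 162 CPM in KO. The log2 fold changes were 0.28 ± 0.24 and 0.14 ± 0.16 (edgeR adjusted p = 0.82 and 0.57), and over the 14 libraries 0.05 ± 0.12 (edgeR adjusted p = 0.77). All 6 libraries of the WT set, KO and WT alike, were at 129 CPM or below, and all 8 libraries of the other sets at 134 CPM or above.

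Abcg1, which loads cholesterol onto HDL and is abundant in macrophages (chromosome 17, 31057675 to 31117988, plus strand), had the lowest level per kilobase of the detected genes. It was at 8.83, 13.6 and 7.93 CPM in WT and at 3.01, 0.677 and 1.81 CPM in KO, the middle KO library resting on 10 counts. Abcg1 fell by 2.46 ± 0.63 on the log2 scale (edgeR adjusted p = 0.016), a call that was lost without WT replicate 2 (edgeR adjusted p = 0.068). In the CreCtrl set it was at 4.70 and 7.36 CPM in CreCtrl and at 1.67 and 1.73 CPM in KO, a log2 fold change of -1.82 ± 0.39 (edgeR adjusted p = 0.028). That call was lost without CreCtrl replicate 2 (edgeR adjusted p = 0.099), without KO replicate 2 (0.0792) and in the fit of 6 groups (0.118). In the Ctrl set it was at 9.63 and 6.87 CPM in Ctrl and at 3.89 and 9.26 CPM in KO. There KO replicate 2 again lay within the control range, and the log2 fold change of -0.32 ± 0.55 was not called (edgeR adjusted p = 0.93). It was -1.08 without that library.

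The difference of the KO effect between sets was tested for each gene. Beside Pltp, none of the 9 genes was called between the WT and Ctrl sets. None was called between the WT and CreCtrl sets, where 1.49% of all genes differed, or between the Ctrl and CreCtrl sets, where 0% differed by edgeR. At an unadjusted p under 0.05 there were 6 of the 9 genes between the WT and Ctrl sets, where 21.4% of all genes were, 2 between the WT and CreCtrl sets (14.9%) and 0 between the Ctrl and CreCtrl sets (8.75%). The largest of these values was for Cd36, whose KO effect differed by -3.48 ± 1.17 on the log2 scale, WT set minus Ctrl set (edgeR adjusted p = 0.10). This difference was -0.45 without KO replicate 2 of the Ctrl set (edgeR adjusted p = 0.93) and was called without KO replicate 1 of that set, at -4.37 (edgeR adjusted p = 0.014).

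Other genes of the same pathway were drawn from 4 lists of 53 genes in all. In KO vs. WT, 40 of them could be tested, of which 12 were called higher and 7 lower. In KO vs. Ctrl none of 40 was called. In KO vs. CreCtrl 1 of 41 was called higher and 7 lower, and over the 14 libraries 13 of 38 were called higher and 7 lower. The shares called beside these counts are those given above for all genes.

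Among 11 uptake receptors and their partners tested in KO vs. WT, 5 rose and 5 fell. The median log2 fold change of 0.37, beside -0.08 for all genes, was the value of the 1 gene not called, Lrpap1, which encodes a chaperone of such receptors (edgeR adjusted p = 0.059). Sorl1, a sorting receptor that binds apolipoprotein E, rose from 91.5 ± 9.5 to 333 ± 14 CPM (SD, n = 3 and 3; log2 fold change 1.87, edgeR adjusted p = 3.5e-05), and it was the gene of the 4 lists called higher in KO vs. CreCtrl (0.98, edgeR adjusted p = 0.048). Lrp8, an apolipoprotein E receptor, rose from 181 ± 30 to 453 ± 32 CPM (log2 fold change 1.32), and the sorting receptor Sort1 from 141 ± 11 to 311 ± 45 CPM (1.14). The lysosomal membrane protein Scarb2 fell from 171 ± 15 to 91.7 ± 2.8 CPM (-0.90). The macrophage scavenger receptor Msr1 fell from 9.95 ± 3.69 to 0.112 ± 0.103 CPM, with 1 of the KO libraries at 0.

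Among 9 apolipoprotein and assembly genes tested, 2 rose and 2 fell (median 0.11). Clu, which encodes clusterin or apolipoprotein J, rose from 1615 ± 216 to 9311 ± 200 CPM (log2 fold change 2.53, edgeR adjusted p = 2.4e-05). Sar1b, a GTPase of the vesicles that carry lipoproteins out of the endoplasmic reticulum, rose from 27.5 ± 6.9 to 69.6 ± 4.2 CPM (1.34). Apod, the gene of a small lipid-binding apolipoprotein, fell from 754 ± 72 to 70.0 ± 55.9 CPM (-3.43), and Apobec1, the editor of Apob mRNA, from 30.2 ± 6.0 to 4.05 ± 2.24 CPM (-2.90). P4hb, the partner subunit of MTTP, was not called, at 348 ± 10 CPM in WT and 314 ± 36 CPM in KO (-0.15, edgeR adjusted p = 0.41). Apod and Apobec1 were also called lower in KO vs. CreCtrl, by log2 fold changes of -3.67 and -1.36.

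Among 6 lipases and remodelling genes tested, 2 rose and 0 fell (median 0.03). Pla2g7, the lipoprotein-associated phospholipase A2, rose from 215 ± 13 to 530 ± 51 CPM (log2 fold change 1.30), and Angptl4, an inhibitor of lipoprotein lipase, from 22.5 ± 2.0 to 50.0 ± 9.8 CPM (1.15). The lysosomal acid lipase Lipa was at 143 ± 11 CPM in WT and 148.6 ± 3.3 CPM in KO (0.05, edgeR adjusted p = 0.76). Among 14 efflux and intracellular cholesterol genes tested, 3 rose and 0 fell (median -0.09). These were Tspo, which binds cholesterol at the mitochondrial membrane (87.7 ± 7.5 to 210 ± 15 CPM, log2 fold change 1.26), Npc2, the lysosomal cholesterol carrier (364 ± 66 to 731 ± 39 CPM, 1.01), and Soat1, which esterifies cholesterol (124 ± 9 to 210 ± 5 CPM, 0.76). Npc1 and Nr1h3, which encodes the oxysterol receptor LXR alpha, had log2 fold changes of -0.39 and -0.54 and were not called (edgeR adjusted p = 0.11 and 0.18).

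**Figure D5:**
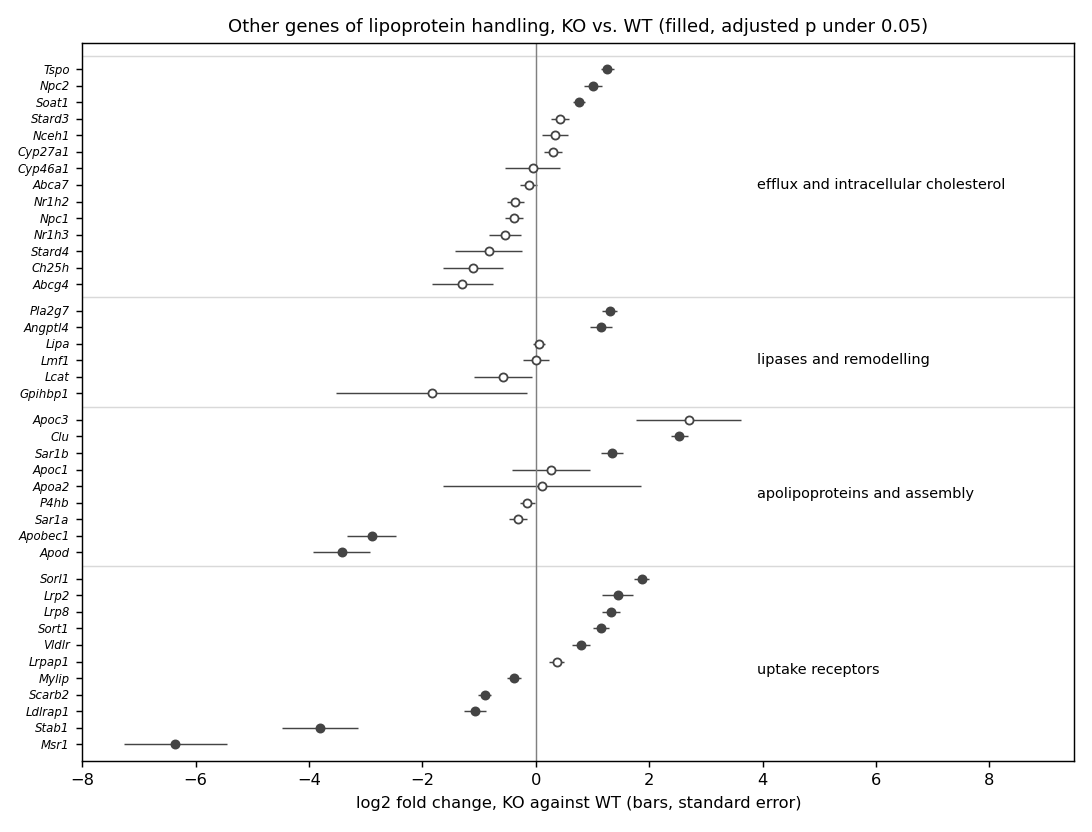
Log2 fold change of KO against WT (x axis, bars for the standard error) for the 40 genes of the 4 pathway lists that could be tested, grouped by list. Filled circles passed an adjusted p of 0.05, 12 to the right of 0 and 7 to the left, with Msr1 at -6.36 and Clu at 2.53 at the ends of the called range.

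The genes whose profile was most like each member were sought among 9964 genes of at least 10 CPM on average, by the root mean square difference of log2 CPM over the 14 libraries after centring each gene on its mean. For Cd36 they were Mpeg1 (0.36) and Clec7a (0.45), both known as macrophage genes, against a spread of 2.00 for Cd36 itself about its mean. For Abcg1 they were Apobec1 (0.37) and Plek (0.48), against its own spread of 1.14. For Lpl the most like, Tmem106a (0.64) and Lgals3 (0.65), stood further off, against a spread of 1.42. For Pltp they were the secreted phospholipase gene Pla2g5 (0.13) and Chchd6 (0.14), against 0.63. Apoe was closest to Nedd8 (0.15) and Psmc3 (0.16), Mttp to Homez (0.15) and Nt5e (0.16), and Scarb1 to Smim1 (0.09) and Fam234a (0.10). Abca1 was closest to Nmt2 (0.14) and Zfr (0.18). Lrp1 was closest to Sept8 (0.06) and Supt16 (0.08), but its own spread was 0.11, so that any gene of little variation comes near it. These values describe 14 libraries that share their groups, markers and depth.

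Promoter sequence is shown for a gene that rose, a gene that fell and a gene with no call, so that the letters near their start sites can be compared. RefSeq promoters of GRCm38.p6 were matched to 7 of the 10 genes, without Abcg1, Scarb1 and Lpl. The sequences are the 250 bases before the annotated start, 5′ to 3′ on the strand of the gene, and capitals mark matches on either strand to GGGCGG (SP1), CACGTG (the E-box of MITF) or TATAAA (the core promoter element bound by TBP).
Pltp, chr2:164857709-164857958, minus strand: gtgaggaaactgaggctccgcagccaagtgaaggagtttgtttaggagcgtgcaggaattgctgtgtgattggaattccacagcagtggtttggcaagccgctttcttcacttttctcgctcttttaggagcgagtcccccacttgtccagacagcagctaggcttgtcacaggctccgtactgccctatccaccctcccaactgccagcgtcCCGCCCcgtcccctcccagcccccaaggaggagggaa
Cd36, chr5:17835897-17836146, minus strand: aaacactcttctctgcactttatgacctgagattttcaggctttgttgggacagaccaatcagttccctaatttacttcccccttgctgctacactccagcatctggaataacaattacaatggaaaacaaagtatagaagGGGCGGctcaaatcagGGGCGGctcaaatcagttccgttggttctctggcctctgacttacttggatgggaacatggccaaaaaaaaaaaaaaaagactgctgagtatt
Abca1, chr4:53159896-53160145, minus strand: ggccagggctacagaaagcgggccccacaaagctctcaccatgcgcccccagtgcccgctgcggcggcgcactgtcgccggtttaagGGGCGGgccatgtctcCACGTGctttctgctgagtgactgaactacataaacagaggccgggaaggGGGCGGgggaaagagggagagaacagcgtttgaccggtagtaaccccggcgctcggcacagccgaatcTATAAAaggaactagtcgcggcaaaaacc
Pltp held 1 match to GGGCGG and Cd36 held 2 within a short direct repeat, and 32.7% of 32851 promoters held at least 1. Abca1 held 2 matches to GGGCGG, 1 to CACGTG and 1 to TATAAA, the last 2 found in 6.02% and 12.4% of all promoters. None of these 3 windows held the DR4 element (the direct repeat bound by LXR, in 0.0152% of promoters), TCACNCCAC (a sterol response element bound by SREBP, in 1.05%) or TAATCC (bound by OTX2, in 6.25%). DR4 here means only an exact pattern of 16 letters, in which the repeat is perfect. Imperfect repeats were not searched, so whether these windows, that of Abca1 included, hold a DR4 element with other letters was not tested. No match in these windows says only that these letters are not there. The Cd36 window precedes a start site within the gene's annotated span.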

How the data were processed

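RPE of 14 mice was profiled by RNA-seq of TruSeq stranded poly(A) libraries. The authors deposited raw counts per gene; per the labels, the processing notes name bcl2fastq 2.19, STAR 2.5.2, Cufflinks 2.1.1, HTSeq 0.11.2 and GRCm38. The annotation release and the strand setting of the counting are not given in the sources used here. Of 42687 genes, 42329 were matched to GENCODE M21, which supplied exon lengths and coordinates. Groups were taken from genotype labels and sets from the sample names.

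Counts were tested with edgeR 4.0.16 (TMM, filterByExpr, quasi-likelihood F test, Benjamini-Hochberg over all genes tested, called under an adjusted p of 0.05) in R 4.3.3, for KO vs. WT (15428 genes), KO vs. Ctrl (15287) and KO vs. CreCtrl (15963) within each set, over the 14 libraries with the set as covariate (14925), and for differences of KO effects in a fit of 6 groups (17662). Marker sums, levels per kb and profile likeness used TMM over the 14 libraries and, for log2 values, a prior count of 2. Standard errors were taken from the log2 fold change and its F. The fits were tested on simulated counts with the same dispersion for every gene. Of 200 changed genes, edgeR recovered 148 against WT, 115 against Ctrl, 107 against CreCtrl and 192 over the 14 libraries. It made 1 to 8 false calls in these fits. The simulated counts do not carry the spread of the real libraries, so they cannot show how many changes were missed there. DESeq2 1.42.0, other scalings, other filters, a replicate block and leaving out each library were the alternatives. The 10 genes, the pathway and marker lists and the naming rule (all 10 members, Clic4, at most 5 called and 2 uncalled genes per pathway list in KO vs. WT, and the 2 most similar profiles) were chosen with earlier results of these data known, and 1 gene of the uptake list is not reported here. Replicates are separate mice, and no pair of libraries of the same group agreed within sampling noise. Libraries of different groups were not compared in this way.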

Additional observations from a re-analysis of the deposited data

Results flagged for a closer look

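Among the 7 KO libraries, Cd36 was highest in KO replicate 2 of the Ctrl set, at 73.5 CPM scaled over the 14 libraries. The gap to the next KO library took up 0.948 of the whole range of the group, which set that library apart by Dixon's criterion. Abcg1 was set apart in the same way and in the same library, at 9.61 CPM with a gap of 0.625 of the range. Both gaps were taken on CPM, not on log2 CPM, and depend on that scale. The other 6 KO libraries held 1.07 to 4.83 CPM of Cd36 and 0.699 to 4.05 CPM of Abcg1. Lpl was also highest among KO there, at 20.95 CPM against 1.87 to 10.7 CPM, but did not meet the criterion. The 10 myeloid markers summed to 2655 CPM in that library and to 774 to 1005 CPM in the other KO libraries (1960 CPM and 31.5 to 233 CPM without Csf1r, which was set aside after its values were seen), whereas its RPE marker sum of 72494 CPM was within the range of the other KO libraries, 70121 to 80301 CPM. The part of the myeloid markers in these values was not tested. Chance alone sets apart about 1 in 20 groups examined.

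The KO effect on Pltp was larger among the WT set libraries than in the Ctrl set by 1.04 on the log2 scale (edgeR adjusted p = 0.045), the KO libraries being above the controls in both sets. That call was lost in most of the alternatives, with adjusted p up to 0.12 (edgeR with library sizes alone).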

How the results depend on the processing

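The 7 calls in KO vs. WT and the 7 over the 14 libraries kept their directions in every alternative run. Of 1035 recomputed values for single genes, 966 kept their direction and their side of the threshold, 13 became called, 25 lost their call and 31 changed sign. Leaving out each library gave 6 to 7 calls against WT, 0 against Ctrl, 1 to 4 against CreCtrl and 7 over the 14 libraries. It gave 0 to 1 for the WT and Ctrl difference and 0 for the other differences. In KO vs. CreCtrl a single call remained without CreCtrl replicate 2 or without KO replicate 2, and without CreCtrl replicate 1 there were 4 calls, with Apoe and Pltp called and Mttp not. There, DESeq2 called 5 genes, adding Apoe and Pltp, and one fit of all 14 libraries as 6 groups called 0. With every gene of at least 1 count, KO vs. Ctrl gave 1 call (Lpl, edgeR adjusted p = 1.33e-04), the WT and Ctrl difference 2, the WT and CreCtrl difference 1 and the Ctrl and CreCtrl difference 1. The log2 fold change of Lpl was -1.69 there, beside -1.67 (edgeR adjusted p = 0.57) in the main fit, so only its p moved. The share of all genes called in that setting is not given here, so these counts have no background beside them. DESeq2 called 1 gene, Pltp, for the WT and CreCtrl difference. The call of Pltp for the WT and Ctrl difference went to 0 with RLE factors, with library sizes alone and with at least 10 counts in every library. The causes of these changes were not tested.

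With library sizes alone the median over all tested genes moved from -0.08 to -0.32 against WT, from 0.01 to -0.11 against Ctrl, from -0.02 to -0.24 against CreCtrl and from 0.006 to -0.24 over the 14 libraries. The calls over all genes then split into 1716 higher and 3942 lower in KO vs. WT (2490 and 2929 with TMM), 219 and 2757 in KO vs. CreCtrl (575 and 1954), and 1537 and 4445 over the 14 libraries (3132 and 2925). DESeq2 split them 1655 and 2441 in KO vs. CreCtrl. When edgeR used library sizes alone, Mttp was not called in KO vs. CreCtrl (0.46, edgeR adjusted p = 0.10) and Lpl was (-1.05, edgeR adjusted p = 0.040). All 36 values of the 9 genes moved down with library sizes alone, by -0.27 to -0.11. Relative to the median of all genes, 36 kept the sign they had with TMM.

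Values that changed sign were not called. With library sizes alone Abca1 was at -0.090 in KO vs. CreCtrl and -0.19 over the 14 libraries, and Lrp1 at -0.0039 and -0.21. Over the 14 libraries Lrp1 was at -0.013 with RLE factors and with DESeq2, and with at least 10 counts in every library Abca1 was at -0.035 and Lrp1 at -0.054. For the Ctrl and CreCtrl difference, Scarb1 was at 0.021 with RLE factors, 0.070 with library sizes alone, 0.047 with the stricter filter and 0.021 with DESeq2, and Lrp1 at 0.035 with library sizes alone and 0.00054 with the stricter filter. Leaving out a library moved Abcg1 between -1.08 and 0.16 and Cd36 between -3.46 and 0.63 in KO vs. Ctrl, and over the 14 libraries Abca1 between -0.011 and 0.11 and Lrp1 between -0.0040 and 0.063. It moved the WT and Ctrl difference of Lpl between -1.72 and 1.14 and the WT and CreCtrl difference of Cd36 between -1.53 and 0.27. For the Ctrl and CreCtrl difference the ranges were -0.73 to 0.0023 for Apoe, -0.10 to 0.27 for Abca1, -0.32 to 0.0052 for Pltp, -0.18 to 0.024 for Scarb1, -0.32 to 3.75 for Cd36 and -0.24 to 0.0089 for Lrp1.

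The replicate numbers of the names were tried as a block. Deviations of same-numbered libraries correlated at -0.02, 0.07 and 0.18 in the WT set, at -0.006 in the Ctrl set and at 0.13 in the CreCtrl set. Differently numbered libraries of the WT set correlated at -0.16 to 0.07. With 2 libraries per group, the other pairings must have the same value with the opposite sign. These values therefore cannot decide whether same-numbered libraries share more than a number. With the replicate block there were 7 calls against WT, 0 against Ctrl, 3 against CreCtrl and 7 over the 14 libraries, and 0 for the WT and Ctrl difference. The depth limits Apob, at 0 counts throughout, and Abcg1, at 10 counts in its lowest library.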
